A study of Prunus persica with 12 samples.

Results

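Hard-melting flesh of the peach (Prunus persica) cultivar 'Zhong Hua Shou Tao' was compared with soft-melting flesh of 'Hu Jing Mi Lu', both sampled at the stage numbered 2. RNA of the mesocarp, the edible flesh of the fruit, was sequenced in 2 libraries of 'Zhong Hua Shou Tao' (ZH2) and 2 libraries of 'Hu Jing Mi Lu' (HJ2), chosen by cultivar and stage in the sample titles. These are 4 of the 12 libraries of a series that also holds HJ stages 1 and 3 (HJ1, HJ3), 'Yu Lu' (YL2) and 'Jin Xiu Huang Tao' (JX2), with 2 libraries in each of its 6 groups. ZH2 was labelled hard melting with slight aroma and a Brix of 18, and HJ2 soft melting with strong aroma and a Brix of 12.1. The stage number was shared, but no measure of ripeness came with it. Cultivar, texture, aroma and Brix separate ZH2 from HJ2 all at once, so their parts in any difference cannot be told apart. HJ1, HJ3, YL2 and JX2 were all labelled soft melting. HJ1 was labelled slight in aroma, with no Brix, while HJ3, YL2 and JX2 were labelled strong in aroma, with a Brix of 12.5, 14.9 and 12. Whether 2 libraries of 1 group stem from different fruit or different trees was not stated. The p-values therefore reflect the spread among these libraries alone, which may be technical. In RNA from whole tissue, fewer cells of a type and less RNA per cell cannot be told apart.

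Melting-flesh peaches soften late in ripening, when enzymes take apart the pectin and other polysaccharides of the cell wall and cells lose their hold on each other. Softening is linked to a burst of the hormone ethylene. Over the same period the flesh gains its scent, to which lactones and terpenoids such as linalool contribute, and stores sugars, which make up most of what Brix measures as soluble solids. Hard-melting fruit stay firm longer on the tree and after harvest.

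Expression was given as RPKM, the reads of a gene scaled to its length and to the number of reads in the library. The files list 27864 identifiers without gene names, and 0 of them matched the reference gene table, so that genes are given by identifier and no function can be assigned. For the same reason the tissue and texture labels could not be set against marker genes. Depth, worked back from the values, was 2505617 and 2889279 reads in ZH2 and 2440928 and 3222252 reads in HJ2. A count of 0 allows up to 3 reads, worth 1.20 and 1.04 RPKM for a gene of 1 kb in the ZH2 libraries and 1.23 and 0.931 RPKM in the HJ2 libraries. The 2 ZH2 libraries correlated at Pearson's r = 0.977 and the 2 HJ2 libraries at r = 0.978 over log2(RPKM + 1) of 15217 genes, against r = 0.908 between the means of ZH2 and HJ2; these correlations are across genes, which are not independent replicates. Among genes averaging at least 10 RPKM, 33 of 6091 (0.542%) differed over 2-fold between the ZH2 libraries and 32 of 6743 (0.475%) between the HJ2 libraries. Between the means of ZH2 and HJ2, 1515 of 7213 genes (21.0%) did, a wider set that averaged at least 10 RPKM in either group. It takes in genes that are high in only 1 of them.

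ZH2 differed from HJ2 at about 1 gene in 4, with lower genes outnumbering higher ones in RPKM. With limma, 3785 of 15217 genes (24.9%) had an adjusted p under 0.05. Higher in ZH2 were 1213 genes (7.97% of all genes tested), and lower were 2572 (16.9% of all genes tested). The median log2 difference was 1.35 among the higher genes and -1.14 among the lower genes, beside -0.23 over all genes tested. On the log2 scale, 847 higher and 1545 lower genes differed by at least 1, 312 higher and 376 lower genes by at least 2, and 12 higher and 17 lower genes by at least 5. The smallest differences called were 0.29 and -0.27. Without regard to the test, both ZH2 libraries lay above both HJ2 libraries for 19.5% of all genes and below both for 45.8%.

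The balance between higher and lower genes moved with the scaling. Rescaling each library by its median ratio raised the median difference of all genes by 0.20 on the log2 scale and gave 1697 higher and 1637 lower genes. Leaving the 10 leading genes of each library out of its depth raised it by 0.11 and gave 1437 higher and 2029 lower genes. All 1213 higher genes were called in the same direction under all 3 scalings, and so were 1637 of the 2572 lower genes. Both alternatives moved the differences upward, which favours the higher calls, so only the lower calls were at risk. Leaving out any of the 4 libraries brought the total to between 2357 (without HJ2 replicate 1) and 2516 (without ZH2 replicate 1), with 2446 without HJ2 replicate 2 and 2426 without ZH2 replicate 2.

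**Figure D1:**
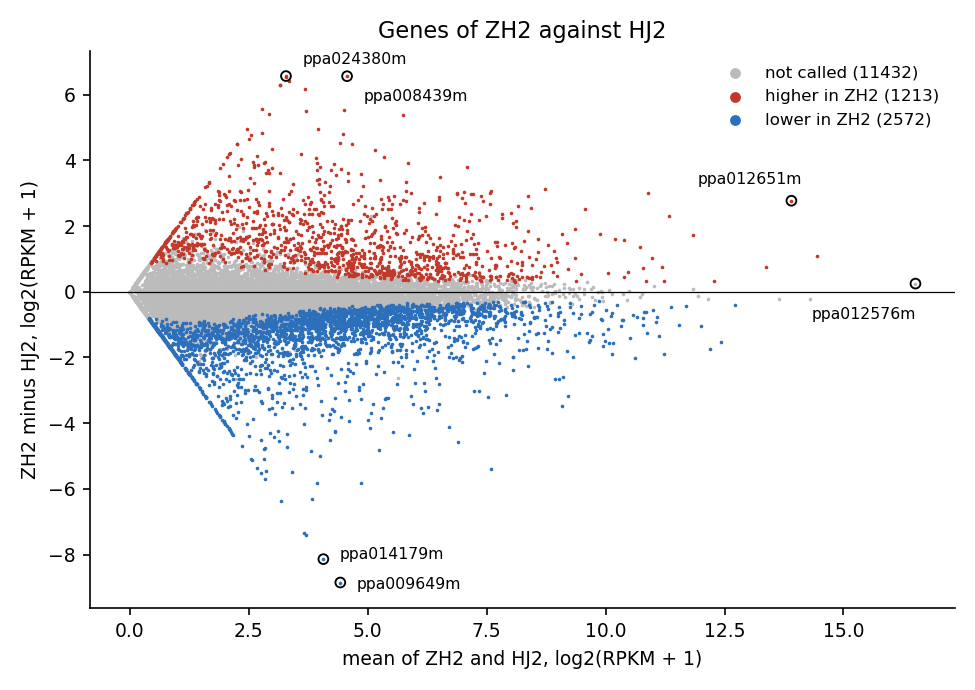
Difference between ZH2 and HJ2 for each of 15217 genes (vertical axis, log2(RPKM + 1), ZH2 minus HJ2) against the mean of both groups (horizontal axis, same scale); red points are the 1213 genes called higher in ZH2, blue points the 2572 called lower, grey points the rest, and rings mark the genes named in the text. The cloud is centred slightly below 0, and ppa009649m and ppa014179m lie farthest down, at -8.85 and -8.14.

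The 2 genes with the largest rise differed in their levels elsewhere. They and the 2 that fell furthest were taken from genes whose ZH2 and HJ2 libraries did not overlap. The gene ppa024380m stood at 96.8 and 91.2 RPKM in the ZH2 libraries (264 and 287 reads), against 0 reads in both HJ2 libraries. It was at least 83.3-fold higher in ZH2, taken against 3 reads in the shallower HJ2 library, with a log2 difference of 6.57 ± 0.203 (SE, limma adjusted p = 1.04e-08). No HJ library of any stage held a read of it, while YL2 gave 91.8 and 104 RPKM and JX2 64.3 and 57.8 RPKM. The log2 difference between ZH2 and the mean of YL2 and JX2 was 0.28 ± 0.175 (SE), and its limma adjusted p of 0.346 missed the threshold. The HJ libraries were thus the low ones at this gene, and ZH2 lay among YL2 and JX2.

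The gene ppa008439m reached 185 and 286 RPKM in ZH2, against 1.97 and 0.997 RPKM in HJ2, where it rested on 6 and 4 reads. The ratio of the means was 158, or 119 and 236 against either HJ2 library alone, and the depth-corrected ratio of reads had a 95% counting interval of 91.3 to 352. Its log2 difference was 6.56 ± 0.274 (SE, limma adjusted p = 4.02e-08). HJ2 was the lowest of the 3 HJ stages, since HJ1 gave 12.4 and 18.7 RPKM and HJ3 182 and 135 RPKM. The ZH2 libraries lay above all other libraries, and they exceeded YL2 (114 and 88.8 RPKM) and JX2 (14.2 and 14.7 RPKM) by a log2 difference of 2.54 ± 0.237 from the mean of both groups (SE, limma adjusted p = 3.32e-05).

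The 2 genes that fell furthest were read in each of the 10 other libraries and in neither ZH2 library. The gene ppa009649m had 0 reads in ZH2, against 418 and 508 RPKM (1154 and 1851 reads) in HJ2. This makes it at least 437-fold lower in ZH2, against 3 reads in the shallower ZH2 library, with a log2 difference of -8.85 ± 0.116 (SE, limma adjusted p = 5.51e-12). Its RPKM was 83.8 and 75.6 in HJ1, 329 and 337 in HJ3, 108 and 104 in YL2, and 338 and 317 in JX2. Within HJ it was thus lowest at stage 1, and the level in ZH2 was below every one of these groups. The gene ppa014179m also had 0 reads in ZH2, against 279 and 284 RPKM in HJ2, and was at least 144-fold lower (log2 difference -8.14 ± 0.183 SE, limma adjusted p = 9.48e-10). Its RPKM was 76.4 and 103 in HJ1, 133 and 121 in HJ3, 128 and 191 in YL2, and 188 and 190.4 in JX2, so HJ2 was the highest group. Against the mean of YL2 and JX2 the log2 differences were -7.55 ± 0.10 for ppa009649m and -7.43 ± 0.158 for ppa014179m (SE, limma adjusted p = 6.51e-12 and 3.56e-10). Both genes were thus lower in ZH2 than in HJ2 and than in the mean of YL2 and JX2.

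**Figure D2:**
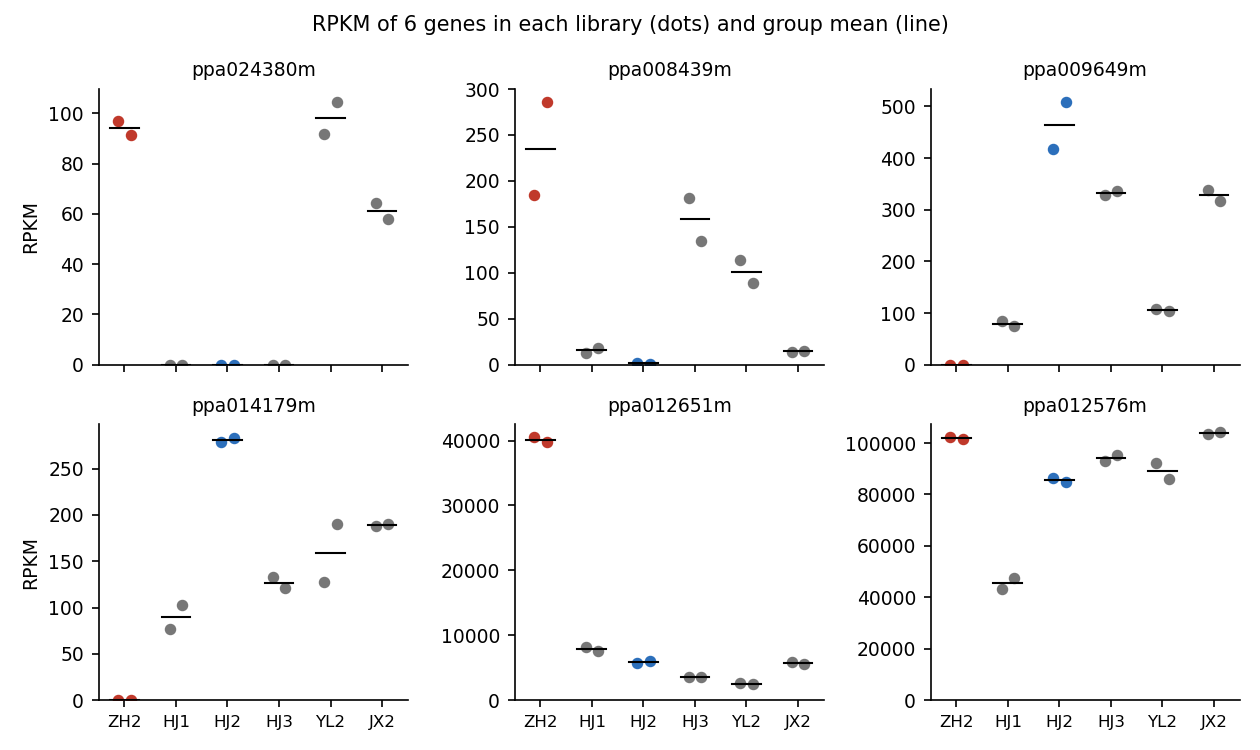
RPKM (vertical axes, linear, from 0) of 6 genes in each of the 12 libraries (dots) with the group mean (line); red marks ZH2, blue HJ2 and grey the remaining groups. ppa009649m and ppa014179m are at 0 in ZH2 alone, ppa024380m is at 0 in the 3 HJ groups, and ppa012651m stands at 40576 and 39701 RPKM in ZH2 against at most 8161 RPKM elsewhere.

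More genes went unread in ZH2 than in HJ2. Reads were present in both ZH2 libraries and in neither HJ2 library for 281 genes, and in both HJ2 libraries and in neither ZH2 library for 623 genes. The deepest and the shallowest of the 4 libraries were both HJ2 libraries. The shallowest, at 2440928 reads, had 15256 genes above 0, beside 14659 and 14910 in the ZH2 libraries. The part of depth in the difference between 281 and 623 genes was not tested. With at least 10 reads required in each library of the group that had them, 19 genes were read in ZH2 alone and 56 in HJ2 alone of the 2 groups. All of these were called by limma, which the choice of genes made near certain. Without the minimum of 10 reads, 96 of the 281 and 231 of the 623 genes were called, beside 24.9% of all genes tested. The 281 and 623 genes were counted over all 27864 identifiers, whether tested or not, so these shares have unlike bases. Of the 19 genes, 7 had 0 reads in all 6 HJ libraries, 5 had 0 reads in YL2 and 1 had 0 reads in JX2. Of the 56 genes, 11 had 0 reads in HJ3, 16 in YL2 and 12 in JX2.

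A set of 8 genes, ppa009649m and ppa014179m among them, had at least 10 reads in each of the 10 other libraries and 0 reads in both ZH2 libraries. The same count was 7 for HJ1, whose second library was the shallowest of the series, and 0 for each of HJ2, HJ3, YL2 and JX2. The choice of these genes fixes the direction of their differences, and their values are a description. The mean in HJ2 of the 8 genes ran from 3.45 to 463 RPKM with a median of 42.4 RPKM. In ZH2 they were between at least 10.7-fold and at least 437-fold lower than in HJ2. Their log2 differences lay between -8.85 and -2.15. Lengths ran from 613 to 3702 bp, and the fewest reads of any of the 10 other libraries ran from 11 to 103 over the 8 genes. Against the mean of YL2 and JX2, the differences of the same genes were between -7.55 and -3.03 on the log2 scale.

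The transcript pool was more concentrated in ZH2. The 10 most abundant genes took 32.6% and 32.1% of the RPKM sum in the ZH2 libraries, against 23.9% and 24.0% in the HJ2 libraries. The effective number of genes, which is how many equally expressed genes would give the same Shannon entropy, was 716 and 742 in ZH2 and 1141 and 1121 in HJ2. Neither measure overlapped between the groups, and with 2 libraries against 2 an exact two-sided permutation test cannot give a p below 0.33, which it gave for both. The share of the 10 leading genes was 16.0% and 16.6% in HJ1 and between 27.0% and 31.3% over the libraries of HJ3, YL2 and JX2, with JX2 (31.3% and 30.6%) closest to ZH2. Of the 10 leading genes of each group, 7 were shared.

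The gene ppa012651m, chosen after its values were seen, gained more RPKM than any other gene. It stood at 40576 and 39701 RPKM in ZH2, against 5769 and 5979 RPKM in HJ2, a 6.83-fold difference of the means (log2 difference 2.77 ± 0.0813 SE, limma adjusted p = 8.39e-09). Its share of the RPKM sum averaged 5.35% in ZH2 and 0.771% in HJ2, and it ranked 2nd and 10th. Elsewhere it lay between 2478 RPKM in the second YL2 library and 8161 RPKM in the first HJ1 library. The log2 difference between ZH2 and the mean of YL2 and JX2 was 3.39 ± 0.0704 (SE, limma adjusted p = 3.56e-10). Within HJ the gene fell over the stages, with a log2 difference of -1.16 ± 0.0813 between HJ3 and HJ1 (SE, limma adjusted p = 9.17e-07).

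The most abundant gene of both groups, ppa012576m, also named after its values were seen, averaged 101949 ± 683 RPKM in ZH2 and 85742 ± 1088 RPKM in HJ2 (SD, n = 2 each). That was 13.6% of the RPKM sum in ZH2 and 11.3% in HJ2. Its log2 difference of 0.25 ± 0.0982 (SE) missed the threshold (limma adjusted p = 0.0916). It passed after rescaling, at 0.50 (limma adjusted p = 0.0127), with the 10 leading genes left out of the depth, at 0.38 (0.0242), and in limma voom on whole reads, at 0.25 (9.31e-08). The gene ranked 3rd in both groups took 4.33% of the RPKM sum in ZH2 and 2.01% in HJ2. Of the 13 genes among the 10 leading genes of either group, 6 were called higher and 4 lower in ZH2. Over all genes tested the shares were 7.97% and 16.9%. The 13 genes were picked by their level in the same libraries, so their calls are a description. The gene that ranked 9th in ZH2, at 5720 ± 146 RPKM, ranked 71st in HJ2, at 1164 ± 4.30 RPKM (SD, n = 2 each). In the other direction, the gene that ranked 22nd in ZH2, at 2574 ± 245 RPKM, ranked 6th in HJ2, at 8633 ± 654 RPKM.

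**Figure D3:**
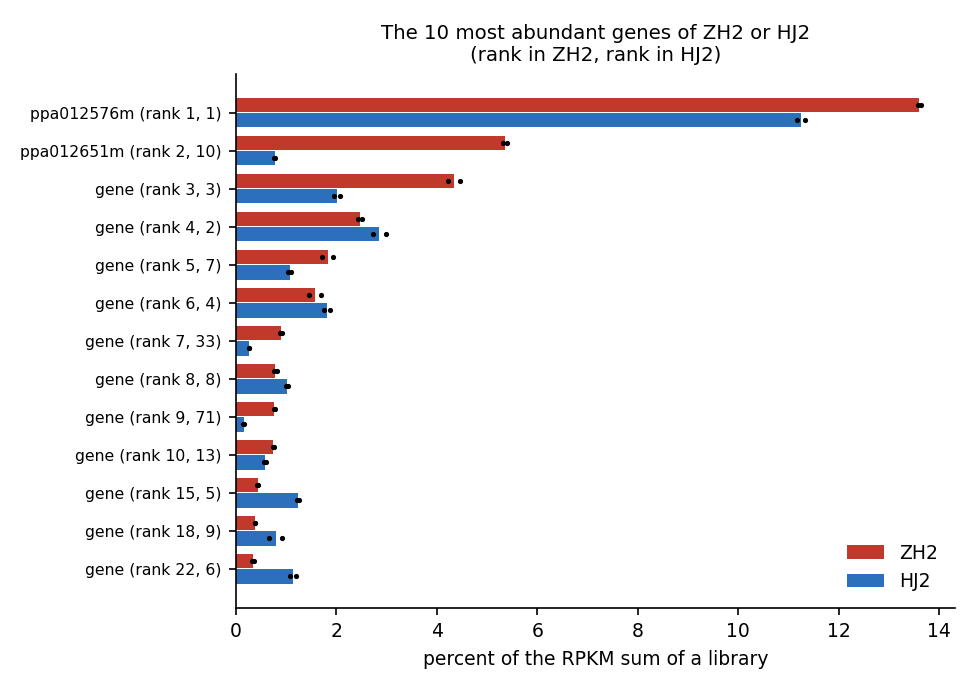
Percent of the RPKM sum (horizontal axis, linear, from 0) taken by each of the 13 genes that were among the 10 most abundant of ZH2 (red, mean of 2 libraries) or HJ2 (blue); dots are single libraries, and ranks in ZH2 and HJ2 stand in brackets. The widest gap is that of ppa012651m, at 5.35% in ZH2 and 0.771% in HJ2.

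In RPKM, gains in ZH2 were concentrated and losses were spread. RPKM is a share of the library, so large gains of a few genes lower all others. The part of this in the losses was not tested. Over all genes, the sum of RPKM gained from HJ2 to ZH2 was 172538, of which the 5 largest gains made up 45.2%. The sum lost was -184943, of which the 5 largest losses made up 11.9%. Genes called higher held 31.5% ± 0.0672 of the RPKM sum in ZH2 and 12.3% ± 0.0661 in HJ2 (SD, n = 2 each). Genes called lower held 17.8% ± 0.0569 in ZH2 and 37.0% ± 0.0753 in HJ2. The direction of these sums was fixed by the calls themselves. The 11432 genes not called held 50.7% of the RPKM sum in ZH2 and 50.6% in HJ2. Among them, ppa012576m alone held 13.6% in ZH2 and 11.3% in HJ2. The median log2 difference of the genes not called was -0.16, so a near-equal share does not mean unchanged genes.

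Calls were more frequent among abundant genes. Genes were put in 3 classes of equal size by mean RPKM over the 12 libraries. In the high class, from 16.7 RPKM up, 14.3% of genes were called higher and 26.2% lower in ZH2. In the middle class the shares were 5.74% and 15.8%, and in the low class, up to 3.77 RPKM, 3.90% and 8.68%. The median log2 difference of all genes was -0.20 in the high, -0.27 in the middle and -0.22 in the low class. In 3 such classes by length, 8.18% of the long genes were higher and 14.2% lower, beside 7.53% and 18.4% of the short genes. The median difference was -0.14 among the long and -0.32 among the short genes.

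**Figure D4:**
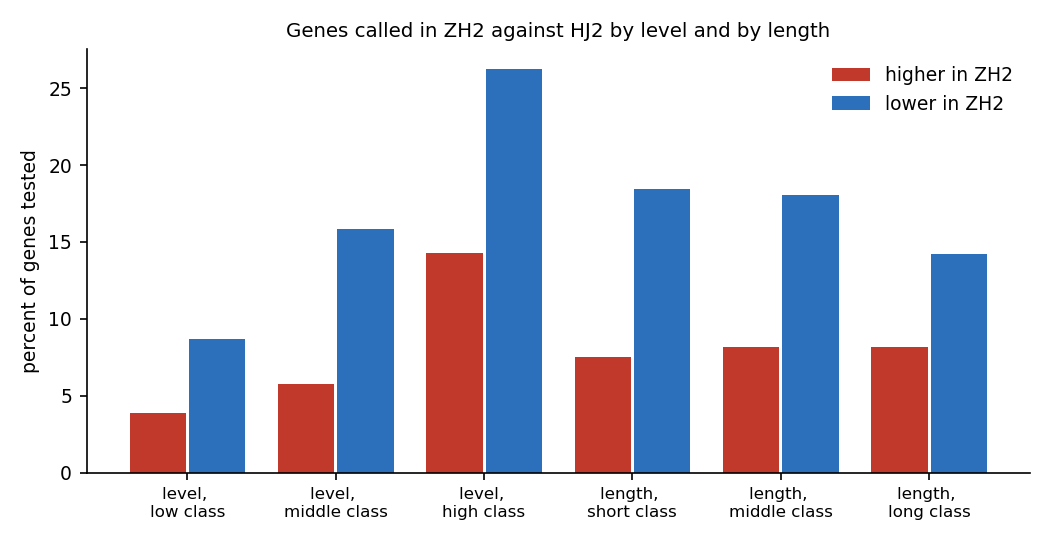
Percent of the genes tested (vertical axis, linear, from 0) that were called higher (red) or lower (blue) in ZH2 than in HJ2, in 3 classes of equal size by mean RPKM over 12 libraries and 3 by gene length. The share called rises with level, to 14.3% higher and 26.2% lower in the high class, while across length the higher share stays between 7.53% and 8.20% and the lower share is smallest, at 14.2%, among the long genes.

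The called genes were then followed through the outer HJ stages, whose means share no library with the means of ZH2 and HJ2. The limma spread of each gene came from all 12 libraries, so it is common to both comparisons. Between HJ3 and HJ1, limma called 43.0% of all genes. Genes higher in ZH2 than in HJ2 were often also higher at stage 3 than at stage 1 of HJ, and lower genes were often also lower. Of the 1213 higher genes, 536 (44.2%) were called higher in HJ3 than in HJ1, against 10.5% of all genes tested, and 222 (18.3%) were called lower. Of the 2572 lower genes, 1475 (57.3%) were called lower in HJ3, against 32.5% of all genes tested, and 224 (8.71%) higher. The 536 genes are 33.5% of all genes higher in HJ3, and the 1475 genes are 29.8% of all genes lower there. The median log2 difference between HJ3 and HJ1 was 0.40 for the higher genes and -0.82 for the lower genes, beside -0.37 for all genes. After rescaling, 841 of 1697 higher genes and 812 of 1637 lower genes (49.6% each) were called in the same direction, against 16.6% and 21.6% of all genes.

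The called genes were also looked up in another pair of cultivars at stage 2. limma called 23.9% of all genes between YL2 and JX2. Their means share no library with the means of ZH2 and HJ2, but the limma spread again came from all 12 libraries. Of the 1213 higher genes, 433 (35.7%) were higher in YL2 than in JX2, against 11.5% of all genes, and 204 (16.8%) were lower, against 12.5%. Of the 2572 lower genes, 825 (32.1%) were lower in YL2, against 12.5% of all genes, and 199 (7.74%) were higher, against 11.5%. Over all 15217 genes, the log2 differences of ZH2 against HJ2 correlated at Pearson's r = 0.350 with those of HJ3 against HJ1 and at r = 0.262 with those of YL2 against JX2. These are correlations across genes of 1 set of tables, given as a description. Abundant genes, which were called more often, enter each of these overlaps, and so does the shared spread. The parts of level and of shared spread in them were not tested.

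The called genes were also divided by their direction between HJ3 and HJ1. This choice and the difference from HJ2 largely fix where the groups lie, so the medians below are a description only. Over all genes tested, the median relative to HJ2 was 0.21 in HJ1, -0.21 in HJ3 and -0.23 in ZH2. The 1475 genes lower in ZH2 and in HJ3 had a median log2 level in HJ1 of 0.47 relative to HJ2, with HJ3 at -1.09 and ZH2 at -1.21. The 536 genes higher in both stood in HJ3 at a median of 1.56 above HJ2, with ZH2 at 1.47. The 222 genes higher in ZH2 but lower in HJ3 than in HJ1 were at a median of 1.52 above HJ2 in HJ1 and 0.02 above it in HJ3, with ZH2 at 1.16. The 224 genes lower in ZH2 but higher in HJ3 than in HJ1 were at -1.39 in HJ1 and -0.28 in HJ3, with ZH2 at -1.03. A remaining 455 higher and 873 lower genes had no call between HJ3 and HJ1. All these medians are set against the same HJ2 libraries.

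Many differences went beyond the range of HJ. Both ZH2 libraries lay above all 6 HJ libraries for 490 of the higher genes (40.4%), beside 5.39% of all genes tested, and below all 6 for 1118 of the lower genes (43.5%), beside 13.8% of all genes. The 2 HJ2 libraries are among the 6, and a called gene had to differ from them. Against all 10 other libraries, ZH2 was above for 301 of the higher genes (24.8%) and below for 575 of the lower genes (22.4%), beside 2.77% and 6.1% of all genes.

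By their medians, the called genes stood between HJ2 and ZH2 in YL2 and JX2, nearer to ZH2 in YL2 than in JX2. On a scale where HJ2 is 0 and ZH2 is 1, the median position of the lower genes was 0.87 in YL2, 0.52 in JX2, 0.72 in HJ3 and -0.04 in HJ1. That of the higher genes was 0.69 in YL2, 0.44 in JX2, 0.76 in HJ3 and 0.41 in HJ1. For 1899 of the 2572 lower genes (73.8%), YL2 was nearer to ZH2 than to HJ2, as was HJ3 for 1734 (67.4%), JX2 for 1331 (51.7%) and HJ1 for 584 (22.7%). For the 1213 higher genes the order was different, with HJ3 nearer to ZH2 for 747 (61.6%), YL2 for 726 (59.9%), HJ1 for 558 (46.0%) and JX2 for 548 (45.2%). Genes chosen for a difference between HJ2 and ZH2 place these 2 groups at the ends, and the positions carry no test. The same HJ2 libraries enter the choice and every position, so other groups can fall on the ZH2 side through the choice alone. Shares of genes nearer to ZH2 were not worked out over all genes tested.

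**Figure D5:**
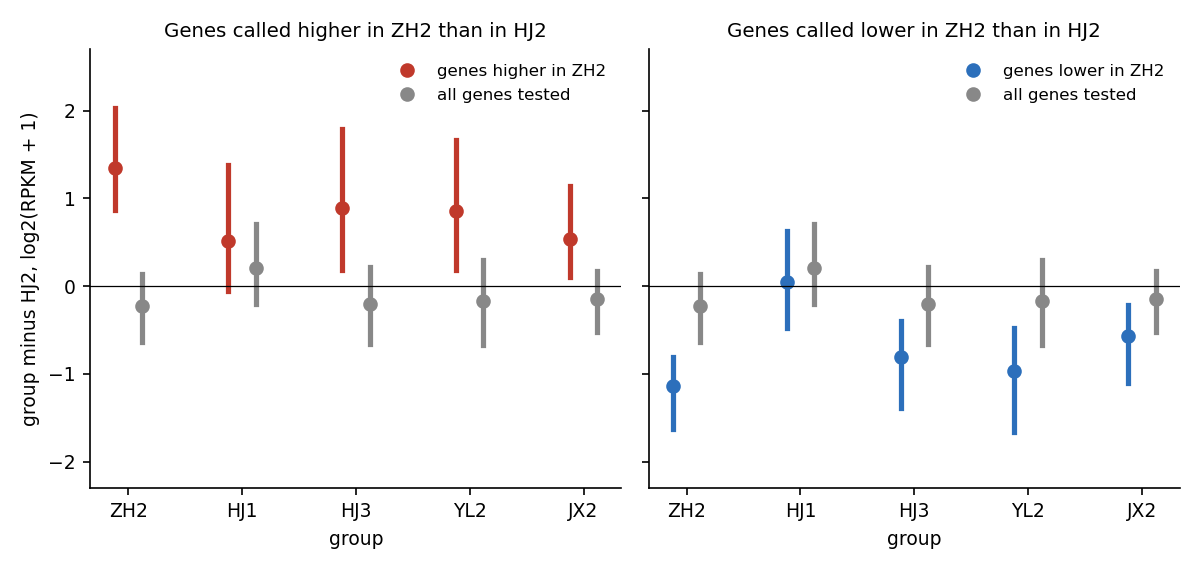
Level of each group minus HJ2 on the log2(RPKM + 1) scale (vertical axis) for the 1213 genes called higher in ZH2 (red, left) and the 2572 called lower (blue, right), with all 15217 genes tested in grey; points are medians and lines the interquartile range. For the lower genes, the medians of YL2 (-0.97) and HJ3 (-0.81) lie nearest to that of ZH2 (-1.14). The median of HJ1 is 0.05, with an interquartile range from -0.48 to 0.63.

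ZH2 was also tested against the other cultivars at stage 2, with the mean of YL2 and JX2 in place of HJ2. It asks, in either direction, whether the difference of ZH2 from HJ2 departs from the mean difference of YL2 and JX2 from HJ2. HJ2 itself cancels. A gene can be called although ZH2 equals YL2 or JX2 or lies between them. Since limma called 23.9% of all genes between YL2 and JX2, the calls do not count genes that set ZH2 apart from both. Of 15217 genes, limma called 2481 (16.3%), of which 1229 (8.08%) were higher and 1252 (8.23%) lower in ZH2. Without ZH2 replicate 1 the number was 1286, and without ZH2 replicate 2 it was 1243. As against HJ2, the balance of the directions moved with the scaling, and after rescaling there were 1485 higher and 1045 lower genes (58.7% of the calls higher), beside 1697 higher and 1637 lower genes (50.9% higher) against HJ2.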

How the data were processed

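The deposited values are RPKM per gene in a separate table for each library, per the file headers. Per the submitters' processing notes, which state neither role nor order, the tools were DESeq 1.10.1, HTSeq 0.5.3, TopHat 1.4.0 and Bowtie 0.12.8. Genome build, annotation, strand and the handling of shared reads were not given in the sources used here, so genes that overlap or have near-identical copies are uncertain. RPKM is a share of the library, so an abundant gene lowers all others.

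Whole reads, depths and gene lengths were worked back from the RPKM steps (Python 3.11.15, numpy 2.4.6, pandas 2.3.3). This was possible for the 17316 genes with values above 0 in 2 or more libraries, where 100% of values came out whole within 0.01 reads; where few reads were counted, they are the smallest whole numbers that the values allow. Intervals and floors (3 reads) cover counting error only.

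The filter, 1 RPKM or more in 2 or more of 12 libraries, kept 15217 genes. limma 3.58.1 (R 4.3.3) was fitted on log2(RPKM + 1) with 6 group means over 12 libraries, 6 residual degrees of freedom and a variance trend. Fold changes on this scale are understated for low genes. P-values were Benjamini-Hochberg adjusted per comparison, with calls under 0.05. The recovery of reads and the limma fit were each tested on simulated data. Simulated libraries for the fit had the same spread setting for every gene and no shift in library composition. They do not bear on the effect of scaling. Named genes were called, had no overlap between ZH2 and HJ2 and a mean of at least 10 RPKM in the higher group, and were the 2 highest and 2 lowest by log2 difference among 908 higher and 1824 lower candidates; ppa012651m, ppa012576m and ppa016661m fall outside this rule. The comparison, genes and summaries were chosen with earlier results of these data known.

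Alternatives were other pseudocounts, filters and scalings, a fit of the compared groups alone, a replicate block, limma voom on whole reads, and leaving out each library. Planned gene lists need product names and were not used. The 2 planned count-model tests were not run, because the deposited unit is RPKM. They could have been run on the whole reads worked back, for which limma voom was used instead.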

Additional observations from a re-analysis of the deposited data

Results flagged for a closer look

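For 4 of the genes described in the Results, the difference of ZH2 from HJ2 departed from the mean difference of YL2 and JX2 from HJ2, as tested by limma with ZH2 minus the mean of YL2 and JX2. The same test called 16.3% of all genes. It did not call ppa024380m (limma adjusted p = 0.346) or ppa012576m (0.597). The genes were picked for their values in ZH2 and HJ2, and the test uses the same ZH2 libraries. On the log2 scale the difference tested was 2.54 for ppa008439m, -7.55 for ppa009649m, -7.43 for ppa014179m and 3.39 for ppa012651m. The limma adjusted p-values were 3.32e-05, 6.51e-12, 3.56e-10 and 3.56e-10. Both ZH2 libraries showed the direction in each case, which values of 0 make certain for ppa009649m and ppa014179m. The groups have 2 libraries each, too few to look for a library that stands apart from its group.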

How the results depend on the processing

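The count of genes called in ZH2 against HJ2 stayed within 1.5 times of 3785 under every alternative that kept all 4 libraries, from 3334 after rescaling to 5045 with limma voom. After rescaling, 1637 genes were lower, against 2572. Leaving out a library gave 2357 to 2516 genes, 833 to 917 higher and 1514 to 1599 lower, with fewer libraries in the fit. For ZH2 against the mean of YL2 and JX2 the ranges were 1243 to 2206 genes, 634 to 1112 higher and 596 to 1107 lower. No call turned to the opposite direction under any of these. In a fit of the ZH2 and HJ2 libraries alone, 3502 genes were called, 2897 of them among the 3785. With the replicate block the counts were 3700 and, against YL2 and JX2, 2367, and the calls of the named genes against HJ2 did not change. Same-numbered libraries of ZH2 and HJ2 deviated together at r = 0.00891, and 0 of 15 pairs of groups exceeded 0.1. No pairing by number was seen, but counting error in genes of few reads weakens such correlations, so a pairing is not excluded. Genes changed in the same direction in HJ3 against HJ1 numbered 841 higher and 812 lower after rescaling, a setting added once the data were seen, against 536 and 1475. Requiring at least 10 reads left 19 of 281 genes read in ZH2 alone and 56 of 623 read in HJ2 alone. The log2 differences of the 4 genes chosen by rule kept their direction and call under each alternative run for them. Depth limits low genes most: a gene of 1 kb at 0 reads can be at up to 1.20 RPKM in ZH2 and 1.23 RPKM in HJ2.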

Other observations

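A single gene, ppa016661m, had at least 10 reads in each ZH2 library and 0 reads in the other 10 libraries; it was singled out after its values were seen. It stood at 18.3 and 14.4 RPKM in ZH2, on 11 and 10 reads, and was at least 3.19-fold higher than in HJ2, with a log2 difference of 4.11. The choice of this gene fixed the direction, and it passed the filter only through the ZH2 libraries, so its values are a description. Its length, worked back as 240 bp, rests on 2 values, and a multiple of that length would give proportionally more reads.

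Identifiers beginning with ppb were few among the genes tested. Of 281 such genes, 14 (4.98%) were higher and 49 (17.4%) lower in ZH2, beside 8.03% and 16.9% of the 14936 genes beginning with ppa.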
